A study of Mus musculus with 15 samples.

Results

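The indirect-pathway projection neurons of the mouse striatum are described here across 3 drug groups: 337 of 5581 deposited cells, chosen by their UMI counts of marker genes. Indirect-pathway projection neurons are a main class of output neuron of the striatum, the input station of the basal ganglia. They release GABA and the opioid peptide enkephalin onto the external pallidum, and they carry the dopamine D2 receptor, which lowers cAMP, beside the adenosine receptor encoded by Adora2a, which raises it. Their neighbours, the direct-pathway neurons, carry the D1 receptor and the peptides substance P and dynorphin and project to the basal ganglia output nuclei. Antipsychotic drugs block the D2 receptor, which these cells carry.

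Single cells were sequenced from the striatum of 15 male C57BL/6J mice, with 1 library per mouse. Of the mice, 5 were given placebo, 5 haloperidol, released from implanted pellets, and 5 olanzapine, mixed into the food. The mice were bought at 8 weeks of age, were given about 1 week to settle, and were treated for 28 to 29 days. The doses, and how the placebo was given, are not stated in the labels. A library holds the dissociated cells of 1 mouse, about 500 cells were aimed at per well, and the table counts unique molecular identifiers (UMIs), that is, distinct captured RNA molecules, for 15932 genes in 5581 cells.

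Of these cells, 337 were taken as indirect-pathway neurons. A cell had to be in the deposited class of neurons (988 cells). It had to hold more UMIs of the projection-neuron genes Ppp1r1b, Rgs9 and Pde10a together than of the interneuron genes Sst, Npy, Nos1, Pthlh and Cox6a2 together. Its summed UMIs of Drd2, Penk, Adora2a and Gpr6 had to be at least 3 and at least 3 times those of Drd1, Tac1 and Pdyn. The mirrored rule gave 381 direct-pathway neurons, and the 651 other neurons consist of these, 93 cells with interneuron genes on top and 177 that met neither rule. The 15 genes of the rule are therefore described below without a test, except across drugs.

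The placebo mice gave 31, 12, 12, 10 and 30 indirect-pathway cells, the haloperidol mice 7, 7, 52, 29 and 6, and the olanzapine mice 4, 20, 37, 36 and 44. The median cell held 3246 UMIs and 1709 genes, against 3483 and 1781 in direct-pathway cells, and the median mitochondrial share of UMIs was 4.22%. Summed over cells, the depth per mouse ran from 20610 UMIs (olanzapine 1) to 204140 (haloperidol 3), 1368456 in all. Summed counts of mice of the same group differed by more than the counting noise of UMIs, with a chi-square per degree of freedom of 1.79 to 8.00 over 26 pairs. This value does not separate differences between mice from differences between the cells of a mouse. The lowest was that of placebo 2 and placebo 5, which share barcodes, as described below. Few cells lay at the edge of the rule: 7 members had a marker sum of exactly 3, 7 neurons missed it with a sum of 2 and no direct-pathway UMI, 2 missed the ratio with 2 to under 3, and 15 failed the comparison with the interneuron genes, 13 of them by a tie.

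The promoters show what sequence the genes of this class carry upstream of their start, for the members for which RefSeq's GRCm38.p6 table held a window. The 250 bases before the start that the table lists are given 5′ to 3′ on the gene's strand, with capitals marking a match, on either strand, to 1 of 3 searched motifs: TGACGTCA (the cAMP response element), GGGCGG (the GC box) and TATAAA (the TATA box). Drd2 lies on chromosome 9 (window chr9:49340153-49340402, + strand), Gpr6 on chromosome 10 (chr10:41072291-41072540, - strand), and Gucy1a1 and Gucy1b1, both called below, on chromosome 3 (chr3:82145651-82145900 and chr3:82074712-82074961, - strand).
Drd2: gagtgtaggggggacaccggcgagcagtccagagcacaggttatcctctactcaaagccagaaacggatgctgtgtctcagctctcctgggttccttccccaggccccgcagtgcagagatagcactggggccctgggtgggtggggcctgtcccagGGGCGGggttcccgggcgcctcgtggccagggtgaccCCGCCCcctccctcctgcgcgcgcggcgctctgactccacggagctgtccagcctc
Gpr6: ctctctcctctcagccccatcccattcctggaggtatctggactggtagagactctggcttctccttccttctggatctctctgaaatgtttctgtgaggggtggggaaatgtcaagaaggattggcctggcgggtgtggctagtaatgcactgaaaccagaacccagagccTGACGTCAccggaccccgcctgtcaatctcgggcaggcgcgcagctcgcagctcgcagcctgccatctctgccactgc
Gucy1a1: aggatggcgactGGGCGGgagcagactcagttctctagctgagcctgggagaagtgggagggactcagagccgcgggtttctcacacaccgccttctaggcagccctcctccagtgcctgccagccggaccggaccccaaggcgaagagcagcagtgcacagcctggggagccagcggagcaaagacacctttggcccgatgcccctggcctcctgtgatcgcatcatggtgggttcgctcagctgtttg
Gucy1b1: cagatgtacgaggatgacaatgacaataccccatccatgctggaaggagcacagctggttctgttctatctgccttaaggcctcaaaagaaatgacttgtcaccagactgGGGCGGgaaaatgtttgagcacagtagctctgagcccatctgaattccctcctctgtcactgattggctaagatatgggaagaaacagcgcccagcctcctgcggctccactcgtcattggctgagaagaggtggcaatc
The Drd2 window holds 2 GC boxes, the Gpr6 window 1 cAMP response element, and each of the Gucy1a1 and Gucy1b1 windows 1 GC box. Of 27025 promoter windows of the same length, 1.62% hold the cAMP response element, 32.9% the GC box and 13.0% the TATA box. The Drd2 and Gucy1a1 windows overlap the annotated genes, because the listed start lies inside them. A match is a run of letters and was not tested as a binding site.

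Before the results, 2 features of the libraries bear on all of them. The library placebo 5 shared 110 cell barcodes with placebo 3 and 101 with placebo 2, whereas the 14 other pairs of libraries with any barcode in common shared at most 2. The shared cells carried the same deposited class in 109 of 110 and 101 of 101 cases. Each of the 110 and of the 101 cells of placebo 5 correlated best, among all cells of the other library, with the cell of its own barcode (median r = 0.658 and 0.676 across 5305 genes, which are not independent replicates), at a median of 0.308 and 0.328 times its UMIs. The plot of UMIs under shared barcodes shows this. Of the 30 indirect-pathway cells of placebo 5, 16 had such a barcode, and each was also an indirect-pathway cell in the other library. The mice placebo 2, 3 and 5 are therefore not fully separate samples. The shares and the gene tests of indirect-pathway cells with a filter on low counts were also computed with these cells left out of placebo 5. This keeps 321 members. The fits without that filter were not repeated in this way.

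**Figure D1:**
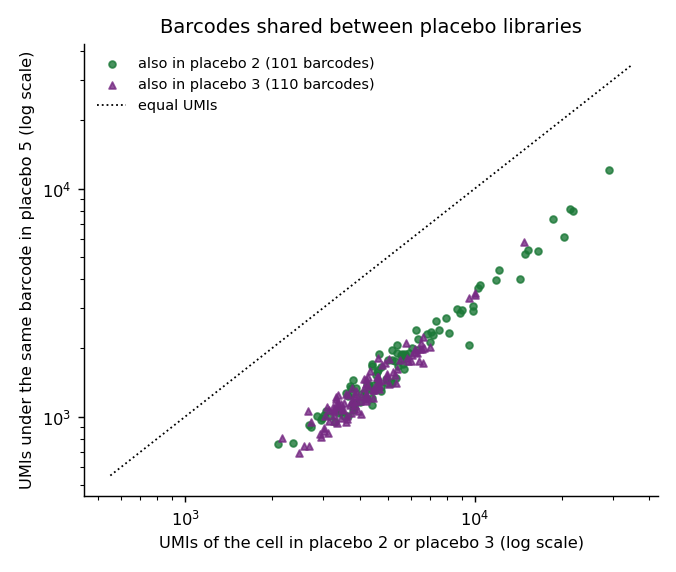
UMIs per cell under the same barcode in placebo 5 (vertical, log scale) and in placebo 2 (101 barcodes, circles) or placebo 3 (110 barcodes, triangles; horizontal, log scale). All points lie in a narrow band under the dotted line of equal UMIs, at a median ratio of 0.308 for placebo 3 and 0.328 for placebo 2.

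Secondly, 2 member cells held 10 or more UMIs of the cholinergic interneuron genes Chat, Slc18a3 and Slc5a7. One, in haloperidol 2, had 127 such UMIs (16, 43 and 68) and 33327 UMIs in all, 42.2% of that mouse's member UMIs. Its marker sum rested on 8 UMIs of Drd2 and 1 of Penk, and Scrublet, a doublet caller, marked it. The other, in haloperidol 3, had 54 such UMIs and 20615 UMIs in all, 10.1% of that mouse's, with 6 UMIs of Drd2 and 0 of Penk. No direct-pathway cell reached 10. Leaving the cell out moved Penk in haloperidol 2 from 4791 to 8274 CPM (UMIs per 1000000 UMIs summed over a mouse's cells of 1 kind) and in haloperidol 3 from 16929.6 to 18831 CPM. The same shares and filtered gene tests were also computed without these 2 cells, and the fits without the filter were not.

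Penk, which encodes the enkephalin precursor, made up 84.5% of the UMIs of the 4 marker genes and was found in 335 of 337 members. Adora2a, the adenosine receptor, was found in 281, Gpr6, an orphan receptor coupled to cAMP production, in 256, and Drd2 in 203. All 4 were seen in 167 cells, 3 in 94, 2 in 49 and 1 in 27. The median marker sum was 50 UMIs, and 305 members held no UMI of Drd1, Tac1 or Pdyn. Chosen without Penk, the rule kept 281 of the members and gained 1 cell.

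Over the 14 mice with at least 5 members, the median level of Penk was 12445 CPM, range 4791 to 20384. Direct-pathway cells had 62.9 CPM, range 0 to 294, and astrocytes, which should lack it, 14.1 CPM. Adora2a stood at 1327 CPM, range 380.3 to 2155, Gpr6 at 790.4 CPM, range 166 to 1223, and Drd2 at 381 CPM, range 208 to 608. The lowest values of Penk and Adora2a came from haloperidol 2, the mouse with the large cholinergic cell. In direct-pathway cells the medians of Adora2a, Gpr6 and Drd2 were 0, 16.2 and 0 CPM. Conversely Tac1, the substance P precursor, had a median of 9.64 CPM in indirect-pathway and 6748 in direct-pathway cells, Drd1 0 and 461, and Pdyn, the dynorphin precursor, 0 and 401. Ppp1r1b, which encodes the dopamine- and cAMP-regulated phosphoprotein DARPP-32, had similar medians in both (1325 and 1292 CPM). All these levels follow from the choice of cells and are a description.

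Genes outside the rule were used to check the label. The summed level of 26 further genes of striatal projection neurons, Adcy5, Foxp1 and Bcl11b among them, had a median of 18762 CPM in indirect-pathway cells, 17339 in direct-pathway cells, 8499.5 in the cells with interneuron genes and 875 in astrocytes. The cortical markers Slc17a7 and Neurod2 were at 0 in the members of every group. Markers of glia and vessels were low: the 10 astrocyte genes summed to 273 to 567 CPM in placebo, 242 to 568.1 in haloperidol and 221 to 726 in olanzapine mice, with Aqp4 at 0 in placebo and haloperidol, and the 9 microglial genes, in the same order, to 15.3 to 81.6, 27.6 to 51.8 and 28.3 to 267. The 8 oligodendrocyte genes summed to 81.6 to 273, 50.7 to 823 and 68.3 to 225 CPM. The 11 measured interneuron markers outside the rule summed to 0 to 44.1 CPM in placebo and 0 to 100.1 in olanzapine mice, but reached 1648 in the haloperidol mouse whose cholinergic cell is described above. Their part in the drug results below was not tested beyond leaving those 2 cells out.

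Genes known for 1 of the pathways but left out of the rule mostly separated the classes in the same sense: of 8 measured for the indirect pathway 6 were higher in its cells, and of 11 for the direct pathway 7 were lower, by the tests below. Grik3, a kainate-type glutamate receptor subunit, had 96 UMIs in 80 indirect-pathway cells and 3 UMIs in 3 direct-pathway cells. P2ry1, an ADP receptor, had 100 UMIs in 63 indirect-pathway cells and 16 UMIs in 11 direct-pathway cells, and Sp9, a transcription factor of developing indirect-pathway neurons, had 57 UMIs in 48 indirect-pathway cells and 15 UMIs in 8 direct-pathway cells. Adk, which clears adenosine, had 108 UMIs in 72 indirect-pathway cells and 32 UMIs in 30 direct-pathway cells. In the other direction, Slc35d3, a transporter of internal membranes, had no UMI in any indirect-pathway cell and 174 UMIs in 124 direct-pathway cells. It was lower than in direct-pathway cells in 11 of 11 mice. Taking 3 of the 337 cells as a ceiling gives a share of 0.890% of members with a UMI. Taking 3 counts over all members as a floor gives a level 52.2-fold lower than in direct-pathway cells. Both values pool the cells of all mice as if independent and leave out the spread between mice. The 337 also include 16 cells whose barcodes are shared with members of another library. Neither value is therefore a limit that holds across mice. Ebf1, a transcription factor of the direct pathway, had 7 UMIs in 1 indirect-pathway cell and 260 UMIs in 149 direct-pathway cells, and Isl1, another, had 8 UMIs in 3 indirect-pathway cells and 92 UMIs in 66 direct-pathway cells; 7 of those 8 UMIs lay in the 2 cholinergic cells. Median depths were 3246 and 3483 UMIs per cell in the 2 classes.

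These genes were too sparse for the filter on low counts and are tested only in a fit without it, by edgeR's quasi-likelihood test paired within 11 mice, with Benjamini-Hochberg adjustment over 14237 genes. The log2 fold change of indirect- over direct-pathway cells was 4.65 for Grik3 (adjusted p = 1.51e-17), 2.66 for P2ry1 (1.24e-09), 2.39 for Sp9 (0.000228), 2.46 for Plxdc1 (0.000935), 3.07 for Upb1 (0.00869) and 1.89 for Adk (6.46e-06), and it was below 0 at -4.70 for Ebf1 (3.82e-35), -3.82 for Isl1 (3.39e-11), -2.81 for Dlk1 (7.23e-10) and -1.51 for Gnb4 (0.00194). Of the indirect-pathway genes, Cd4 (-0.25, adjusted p = 0.999) and Ttc12, with 1 UMI, did not pass, nor did Reln, Nrg1, Eya1 and Zfp521 among the direct-pathway genes. Of these, Nrg1 (0.80, edgeR adjusted p = 0.699) and Reln (0.073, 0.999) lay above 0, against the direction of their list, and Eya1 and Zfp521 below 0. The muscarinic receptor gene Chrm3 had 36 UMIs in 28 indirect-pathway cells and 1 UMI in 1 direct-pathway cell (4.17, adjusted p = 6.85e-06). This fit called 84 genes in all, 0.59% of those tested, 44 higher (0.309%) and 40 lower (0.281%). It was not repeated without the shared barcodes or without the 2 cholinergic cells. Slc5a7 was among the higher genes (5.19, edgeR adjusted p = 6.85e-06), with 108 UMIs in 4 indirect-pathway cells. The 2 cholinergic cells held 68 and 37 of those UMIs. Against all other neurons, fitted likewise without the filter, Sp9 did not pass (log2 fold change 0.29, edgeR adjusted p = 0.817). Those neurons held 90 UMIs of Sp9. Grik3, P2ry1, Plxdc1, Upb1 and Adk were higher in members in that fit too.

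**Figure D2:**
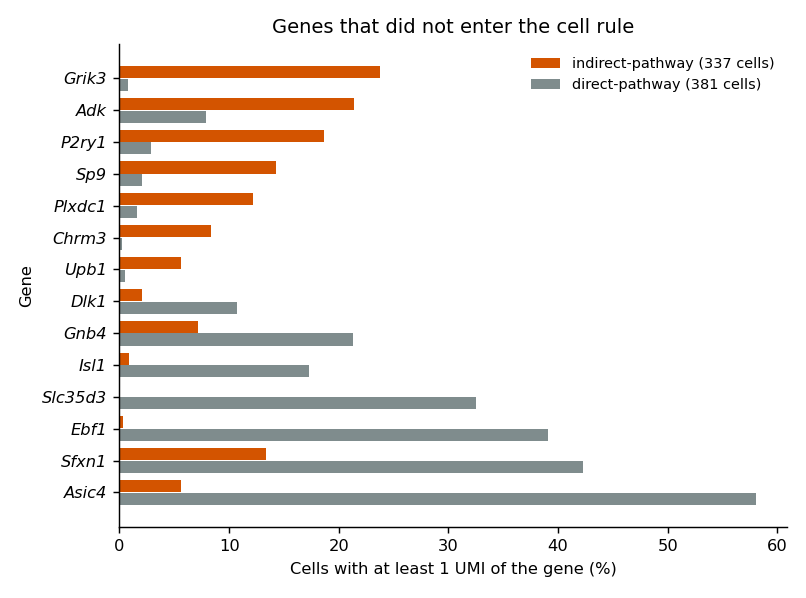
Share of cells with at least 1 UMI (horizontal, percent) of 14 genes that did not enter the rule, in 337 indirect-pathway (orange) and 381 direct-pathway cells (grey). The upper 7 genes, from Grik3 to Upb1, were found in more indirect-pathway cells, and the lower 7, from Dlk1 to Asic4, in more direct-pathway cells.

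Among genes abundant enough for the filter, indirect- and direct-pathway neurons differed in few. The comparison asks what else separates the classes within the same mouse; it used the 11 mice with at least 10 cells of each (all placebo mice, haloperidol 3 and 4, olanzapine 2 to 5). Of 1893 genes outside the rule, 25 passed edgeR's quasi-likelihood test with mouse as a block at an adjusted p of 0.05 (1.32%): 13 were higher in indirect-pathway cells (0.687%) and 12 lower (0.634%). At an unadjusted p of 0.05 there were 168 (8.87%). DESeq2 called 23, of which 21 were the same genes. Without the shared barcodes of placebo 5 the count was 23 (22 shared), and without the 2 cholinergic cells 30 (25 shared).

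Nrxn2, encoding neurexin 2, a presynaptic adhesion protein (chr19:6418756-6533217, GRCm38), ranged over 158 to 409 CPM (median 273) in indirect- and 28.8 to 181 CPM (median 91.8) in direct-pathway cells, and was higher in 11 of 11 mice. Its log2 fold change was 1.71 ± 0.19 SE, edgeR adjusted p = 3.16e-09. Without the shared barcodes the log2 fold change was 1.67.

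Both subunits of soluble guanylyl cyclase, the receptor for nitric oxide that makes cGMP, were higher in indirect-pathway cells. The alpha subunit Gucy1a1 (chr3:82092427-82145946) ranged over 81.8 to 272 CPM (median 204) against 11.3 to 201 CPM (median 70.6) in direct-pathway cells and was higher in 11 of 11 mice (1.36 ± 0.24 SE, edgeR adjusted p = 0.000147). The beta subunit Gucy1b1 (chr3:82032004-82074711) ranged over 94.5 to 535 CPM (median 279) against 124 to 459.5 CPM (median 157) and was higher in 10 of 11 mice (0.73 ± 0.19 SE, edgeR adjusted p = 0.0326). The exception for Gucy1b1 was placebo 4. Gucy1a1 passed in each of the 18 alternatives that tested it, whereas Gucy1b1 lost its call in 11 of 22, among them DESeq2 (adjusted p = 0.0939) and leaving out haloperidol 3 or 4, olanzapine 2, 3 or 5, or placebo 1 or 5.

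Gnas, which encodes the stimulatory G-protein alpha subunit (chr2:174284320-174346744), averaged 478 ± 355 CPM against 119.7 ± 107 (SD, n = 11) and was higher in 10 of 11 mice; placebo 5 was the exception. Its log2 fold change, 2.15 ± 0.37 SE, had an adjusted p by edgeR of 0.00789, which rose to 0.132 with only mice of 20 or more cells. Several overlapping transcripts arise from this locus, and the counts do not separate them. Of the 20 tested genes of dopamine and cAMP signalling, 1 was called (Gnas) and 13 lay above 0, with a median log2 fold change of 0.16, against 887 of 1893 and -0.014 over all genes.

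The remaining higher genes included Calb1, encoding the calcium buffer calbindin (0.68, edgeR adjusted p = 0.0126), Kcnk2, the potassium channel TREK-1 (0.66, 0.00281), and Ctsz, the lysosomal protease cathepsin Z (0.99, 0.00281). Rbp4, a retinol carrier, had 0.83 (0.00907), Sbsn 0.91 (0.00907), Myo5a, a myosin motor, 0.76 (0.00814), Elmo1, an activator of Rac, 0.75 (0.00559) and Nucb2 0.71 (0.0416). Nucb2 lost its call in 15 of 21 alternatives. All these are log2 fold changes of indirect- over direct-pathway cells. Calb1 lost its call without haloperidol 3, haloperidol 4 or placebo 1, Rbp4 without haloperidol 3, and Sbsn without haloperidol 4 or olanzapine 5.

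Of the 12 lower genes, Asic4, a member of the acid-sensing channel family (chr1:75450510-75474340), stood furthest down. It ranged over 0 to 107 CPM (median 11.3) in indirect- and 155 to 584 CPM (median 305) in direct-pathway cells, was lower in 11 of 11 mice, and its log2 fold change was -3.67 ± 0.25 SE (by edgeR, adjusted p = 1.49e-15). Sfxn1, a mitochondrial serine carrier, followed with -1.94 ± 0.27 SE (adjusted p = 4.93e-06, lower in 11 of 11 mice). Wfs1, a protein of the endoplasmic reticulum, was at 158 ± 86.6 CPM against 364 ± 95.5 (-1.24 ± 0.20 SE, adjusted p = 3.40e-05). Foxp2, a transcription factor, had -1.06 (adjusted p = 0.0156, lost without haloperidol 3 or olanzapine 4) and Nefl, the neurofilament light chain, -1.05 (0.000998). Lrpap1, a chaperone of lipoprotein receptors, had -1.01 (4.79e-07), Mctp1 -0.81 (0.00100), Mgst3 -0.75 (0.00216) and Acsl3, an acyl-CoA synthetase, -0.79 (0.0416). Acsl3 lost its call in 8 of 11 alternatives, among them leaving out placebo 2, 4 or 5.

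**Figure D3:**
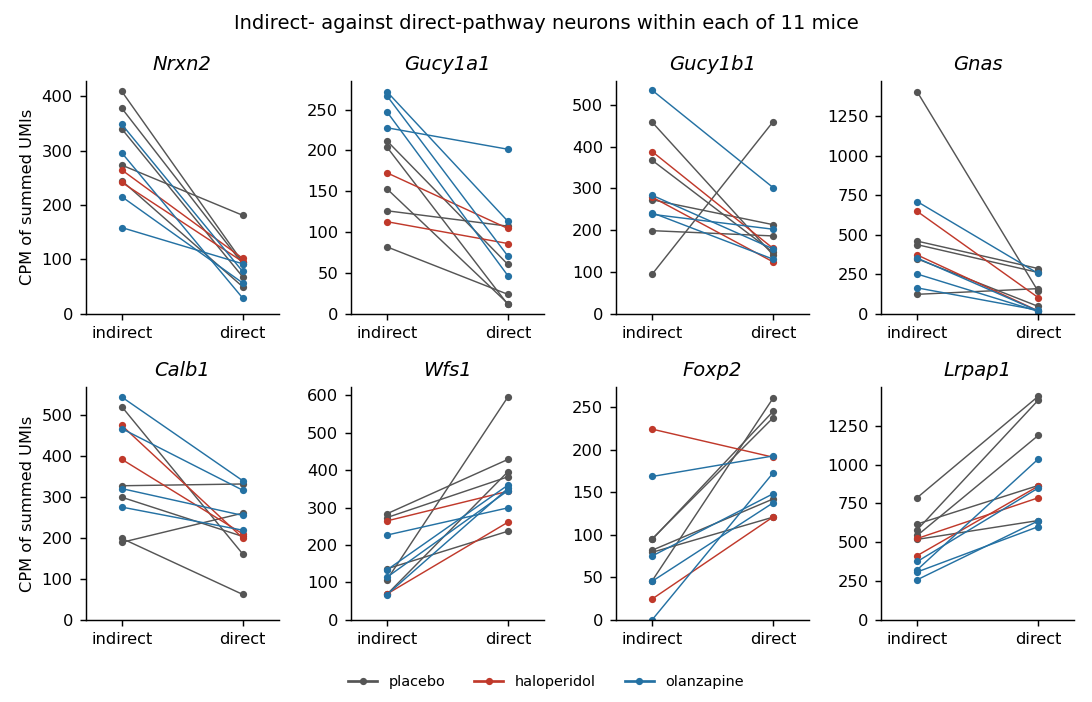
CPM of summed UMIs in indirect- and direct-pathway cells of the same mouse for 8 genes, with 1 line per mouse for 11 mice (grey placebo, red haloperidol, blue olanzapine). All lines fall from left to right for Nrxn2 and Gucy1a1, while 1 line goes against the others for Gnas (placebo 5) and for Gucy1b1 (placebo 4).

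The compartments of the striatum, striosome and matrix, were read from 2 lists. Of 5 tested matrix genes, Calb1 was higher and Wfs1 lower, and 2 others had an unadjusted p under 0.05; the median was 0.46. None of 3 tested striosome genes passed. For receptors that antipsychotics bind, Htr2c, the serotonin 2C receptor, ranged over 30.6 to 247 CPM (median 152) against 46.0 to 149 CPM (median 121) (log2 fold change 0.62, edgeR adjusted p = 0.197), which did not pass, though it did without placebo 2 (adjusted p = 0.0390). Pcp4, a calmodulin regulator, lay just outside the threshold at -0.56 (adjusted p = 0.0521) and passed in 12 of 22 alternatives, without the shared barcodes among them (adjusted p = 0.00513). No ribosomal, mitochondrially encoded, oxidative phosphorylation, synaptic vesicle, glutamate or GABA gene on the lists was called. Of the genes named as called here, Acsl3 and Nucb2 lost their call without the shared barcodes.

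Against all other neurons together, the members were higher in genes of projection neurons and lower, among others, in Resp18, Asic4 and Fxyd6. The same 11 mice entered this comparison. Of 2414 genes outside the rule, 294 passed (12.2%), 178 higher (7.37%) and 116 lower (4.81%), by edgeR's quasi-likelihood test with mouse as a block. Without the shared barcodes 257 were called (253 shared with the 294), without the 2 cholinergic cells 333 (291 shared), and by DESeq2 232. Without the filter on low counts 609 of 14778 were called (4.12%), 151 higher (1.02%) and 458 lower (3.1%). At an unadjusted p of 0.05 there were 630 (26.1%) with the filter. The other neurons are a mixture of direct-pathway cells, cells with interneuron genes and shallower untyped cells (median 1860 UMIs), and their make-up differed between mice. The untyped cells carried Penk at a median of 1322 CPM.

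Of 23 tested projection-neuron genes outside the rule, 14 were higher and 1 lower, with a median log2 fold change of 0.71 against -0.0093 over all genes. The rule asked for more projection-neuron than interneuron UMIs, so this direction is not independent of the choice of cells. The summed level of the list, given above, was similar in direct-pathway cells and lower in the cells with interneuron genes. Arpp19, a regulator of protein phosphatase 2A, had 1.00 (2.42e-06), Ppp1r1a, an inhibitor of protein phosphatase 1, 0.97 (1.09e-05), Rasgrp2, an activator of Rap, 0.91 (1.74e-05), and Adcy5, the main striatal adenylyl cyclase, 0.79 (0.000172), as log2 fold changes with edgeR adjusted p in brackets. The lower gene was Pcp4, at -0.54 (0.0116). Of 23 tested genes of dopamine and cAMP signalling, 7 were higher and none lower; besides Ppp1r1a and Adcy5 these included the phosphodiesterase Pde7b, 0.89 (0.00111), and the G-protein subunit Gng7, 0.73 (0.000929). These lists overlap in Adcy5, Gng7 and Ppp1r1a. Against direct-pathway cells alone, Gnas was the only gene of the dopamine and cAMP list that was called.

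The other genes that stood highest against other neurons were Rbp4 at 1.45 ± 0.20 SE, Gucy1a1 at 1.22 ± 0.19 SE, the immediate early gene Egr4 at 1.13 ± 0.26 SE, Sbsn at 1.09, Dmkn at 1.09, the phosphatase gene Dusp14 at 1.05, Kcnk2 at 1.04 and Calb1 at 1.02, with edgeR adjusted p between 2.94e-07 (Kcnk2) and 0.00390 (Egr4). Rbp4, Gucy1a1, Sbsn, Kcnk2 and Calb1 were also higher against direct-pathway cells, which form a large part of the other neurons, so the 2 comparisons are not independent. Htr2c averaged 148 ± 58.2 CPM in members against 93.6 ± 45.2 in other neurons (SD, n = 11) and passed here (0.83 ± 0.21 SE, edgeR adjusted p = 0.00536). Among matrix genes, Calb1, Rasgrp2 and Id4 (log2 fold change 0.85, edgeR adjusted p = 0.00364) were higher and Wfs1 (log2 fold change -0.67, edgeR adjusted p = 0.0143) lower of 7 tested, and among 3 tested striosome genes Rasgrp1 was higher (log2 fold change 0.49, edgeR adjusted p = 0.0338). The call for Rasgrp1 was lost without haloperidol 4, olanzapine 3, olanzapine 5 or placebo 3, and that for Wfs1 without olanzapine 5.

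On the lower side, Resp18, a protein of secretory granules, ranged over 0 to 238 CPM (median 39.7) in members against 78.1 to 1096 CPM (median 644) in other neurons (-3.22 ± 0.41 SE, edgeR adjusted p = 0.000265; lower in 11 of 11 mice). Asic4 followed at -3.03 (6.88e-12), then Fxyd6, a modulator of the sodium pump, at -2.51 (1.56e-08), the globin gene Cygb at -2.45 (0.000176) and the vesicle protein gene Rab3b at -2.02 (4.80e-07). The growth-associated gene Stmn2 had -1.96 (0.00223), Ralyl -1.85 (3.34e-07), Sfxn1 -1.71 (2.44e-06) and the calcium pump gene Atp2b4 -1.42 (0.0114). Of these lower genes, Asic4 and Sfxn1 were also named as lower against direct-pathway cells, and the others were not. The other neurons include the cells with interneuron genes (median 5463 UMIs against 3246 in members). The part of those cells in these values was not tested. Of 13 tested GABA genes, 2 receptor subunits, among them Gabra4 at 0.76 (0.000303), were higher, and 1 gene was lower. Of 16 glutamate genes, 3 were higher, among them the AMPA receptor subunit Gria3 at 0.73 (0.000662) and the metabotropic receptor Grm5 at 0.49 (0.00775), and the scaffold gene Dlgap1 was lower at -0.98 (0.000403). The vesicle genes Syp, -0.59 (0.00770), and Sv2a, -0.44 (0.0349), were lower, the others of 16 did not pass, and Sv2a lost its call without olanzapine 2, 4 or 5 or placebo 1 or 5.

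Of 76 tested ribosomal protein genes, 17 were lower and none higher at the threshold, 73 lay below 0, and the median log2 fold change was -0.29. Over all 2414 genes, 4.81% were lower at the threshold and 1230 lay below 0. Rps24 averaged 562 ± 163 CPM in members against 833 ± 183 in other neurons (-0.57 ± 0.13 SE, edgeR adjusted p = 0.00287; lower in 11 of 11 mice). Against direct-pathway cells alone none of 75 was called, 55 lay below 0 and the median was -0.066. Of 74 tested genes of oxidative phosphorylation none was called, with 64 below 0 and a median of -0.22. The cells with interneuron genes were deeper (median 5463 UMIs) and the untyped cells shallower than the members (3246), and with only cells of at least 2000 UMIs 202 genes were called, Rps24 among them.

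The number of indirect-pathway cells recovered was compared between drugs as a share, in mice with at least 20 neurons. Membership rests on UMI counts, so a share can move with marker levels and depth as well as with the number of cells. The part of marker levels was not tested. Of all neurons they made up 46.3, 35.3, 37.5, 25.6 and 35.7% in the placebo mice, 21.9, 31.7, 34.1 and 27.3% in haloperidol 1, 3, 4 and 5, and 54.1, 31.6, 43.4 and 27.8% in olanzapine 2 to 5. The groups overlapped. The means were 36.1% ± 7.34 (SD, n = 5), 28.7% ± 5.39 (n = 4) and 39.2% ± 11.9 (n = 4). Haloperidol differed from placebo by -7.34 percentage points (exact two-sided permutation p = 0.143, n = 4 and 5), olanzapine from placebo by 3.14 (exact p = 0.651) and haloperidol from olanzapine by -10.5 (exact p = 0.200). Without placebo 4, the placebo mouse with the lowest share, the first difference was -9.95 points (exact p = 0.0286, the smallest that 4 against 4 mice allow, and not adjusted), and without olanzapine 2 the second was -1.80. With every neuron thinned to 1000 UMIs, haloperidol differed from placebo by -8.85 points and olanzapine by 1.75. In olanzapine 2, the mouse with the highest share, 4 of 20 members were marked as doublets. With mitochondrial and doublet-marked cells removed, haloperidol differed from placebo by -7.51 points and olanzapine by 5.88 (exact permutation p = 0.143 and 0.587).

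Of typed projection neurons, that is, indirect- and direct-pathway cells together, indirect-pathway cells were 72.1, 44.4, 52.2, 37.0 and 48.4% in placebo, 36.8, 58.3, 41.3, 42.6 and 46.2% in haloperidol and 36.4, 64.5, 52.1, 52.9 and 37.6% in olanzapine mice. The means were 50.8% ± 13.1, 45.0% ± 8.14 and 48.7% ± 11.8 (SD, n = 5 each). The differences were -5.78 points for haloperidol against placebo (exact permutation p = 0.468), -2.12 for olanzapine against placebo (0.817) and -3.66 for haloperidol against olanzapine (0.548). Adjusted over the 6 share tests, no p was below 0.600. With the shared barcodes left out of placebo 5, haloperidol differed from placebo by -8.20 points of all neurons and -6.47 points of typed cells, and olanzapine by 2.28 and -2.81.

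**Figure D4:**
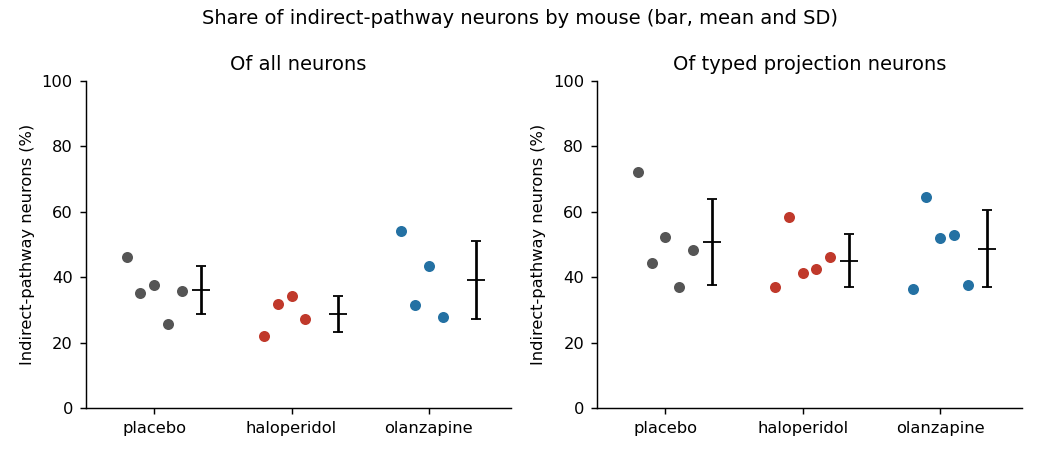
Indirect-pathway neurons in each mouse as a percentage of all neurons (left; mice with at least 20 neurons) and of typed projection neurons (right), by drug, with the mean and SD beside the points. The groups overlap in both panels; on the left the means are 36.1% (placebo), 28.7% (haloperidol) and 39.2% (olanzapine).

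Levels within indirect-pathway cells were then compared between drugs in 1 fit over 5 placebo, 5 haloperidol and 4 olanzapine mice; olanzapine 1, with 4 cells, was left out. None of 2066 genes passed an adjusted p of 0.05 for haloperidol against placebo, olanzapine against placebo or haloperidol against olanzapine (0% called in each) by edgeR's quasi-likelihood test, nor by DESeq2. At an unadjusted p of 0.05 edgeR gave 100 (4.84%), 205 (9.92%) and 143 (6.92%) genes, and DESeq2 89, 182 and 111. Leaving out the shared barcodes or the 2 cholinergic cells gave 0 calls as well.

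Penk stood at 13144, 12754, 16804, 13709 and 12136 CPM in the placebo mice, 20384, 4791, 16929.6, 11630.5 and 10969.9 in the haloperidol mice, and 13596, 5913, 10357 and 11690.4 in olanzapine 2 to 5. The haloperidol mice held both the highest and the lowest value of the 14, and the lowest was that of the mouse with the cholinergic cell. The means were 13709 ± 1822 (SD, n = 5), 12941 ± 5986 (n = 5) and 10389 ± 3267 (n = 4). The log2 fold change was 0.0090 ± 0.31 SE for haloperidol and -0.38 ± 0.33 SE for olanzapine, both against the same placebo mice (edgeR adjusted p = 0.997 and 0.707). Penk took part in choosing these cells; in cells chosen without it the values were 0.013 and -0.42. Without the 2 cholinergic cells the haloperidol value was 0.10, and across single mice left out it ran from -0.30 to 0.21.

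Drd2, the receptor that both drugs block, was at 256, 306, 382, 409.7 and 313 CPM in placebo, 501, 241, 456, 379.6 and 608 in haloperidol and 421, 208, 221 and 422 in olanzapine mice. In 3 of 5 haloperidol mice it lay above every placebo mouse, and haloperidol 2 lay below all of them. The log2 fold change was 0.45 ± 0.32 SE for haloperidol and -0.0077 ± 0.33 SE for olanzapine (edgeR adjusted p = 0.991 and 0.994), and 0.46 and -0.023 in cells chosen without Drd2. That choice dropped only the 2 cholinergic cells and gained 0 cells. Because Penk made up 84.5% of the marker UMIs, choosing cells without Drd2, Adora2a or Gpr6 is a weak check on selection by these genes. Drd2 was counted at 1 UMI in the median cell, and 480 UMIs in all members carry these values.

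Adora2a was at 979, 1468, 2155, 1796 and 1333 CPM in placebo, 1771, 380.3, 1484, 1113 and 1050 in haloperidol and 1321, 784, 788 and 1411 in olanzapine mice, with fold changes of -0.33 ± 0.32 SE and -0.48 ± 0.33 SE on the log2 scale (edgeR adjusted p = 0.991 and 0.645), and -0.32 and -0.48 in cells chosen without Adora2a. The groups overlapped.

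Gpr6 was the marker gene with the smallest p. It stood at 988, 1223, 846, 945 and 871 CPM in placebo, 735, 241, 691, 906 and 166 in haloperidol and 934, 467, 549.6 and 556 in olanzapine mice. In 4 of 5 haloperidol and 3 of 4 olanzapine mice it lay below the lowest placebo mouse. The means were 975 ± 150.3, 548 ± 326 and 627 ± 209 (SD), and the log2 fold changes -0.74 ± 0.33 SE and -0.62 ± 0.34 SE against the shared placebo mice. The unadjusted p of 0.0285 and 0.0740 became 0.854 and 0.564 by edgeR's adjustment over all genes, so neither passed. Choosing the cells without Gpr6 gave -0.75 and -0.62, and without the cholinergic cells the haloperidol value was -0.61. With only mice of 10 or more cells, which drops haloperidol 1, 2 and 5, it was -0.28. Without the shared barcodes of placebo 5 the log2 fold changes under haloperidol and olanzapine were -0.77 and -0.65 for Gpr6, 0.010 and -0.37 for Penk, 0.43 and -0.020 for Drd2, and -0.37 and -0.51 for Adora2a. Drd1, Tac1 and Pdyn were below the filter in these cells and were not tested across drugs.

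**Figure D5:**
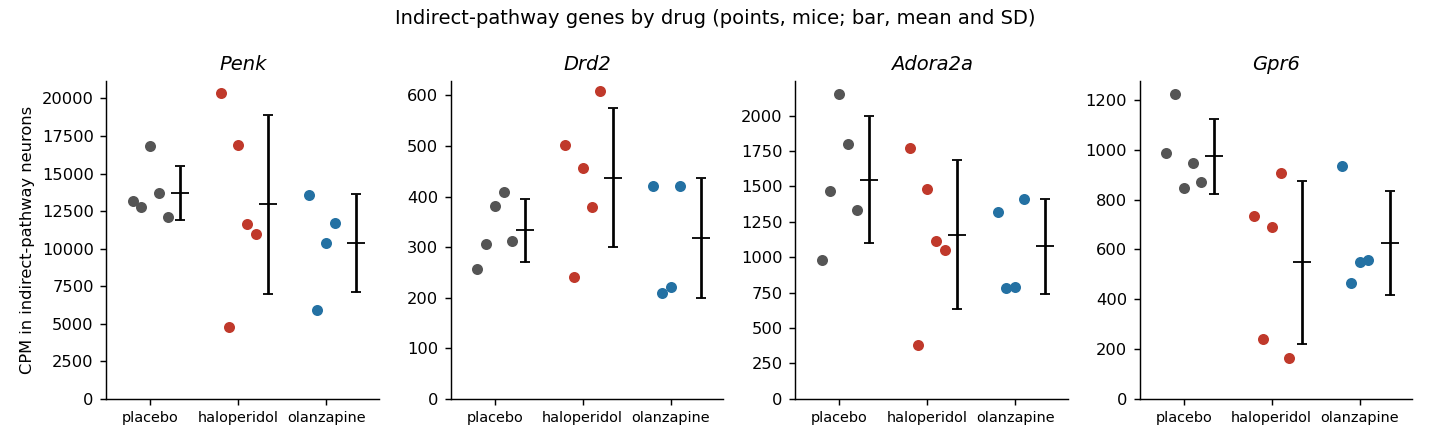
CPM of the 4 marker genes in indirect-pathway cells of each mouse (points; 5 placebo, 5 haloperidol, 4 olanzapine), with the mean and SD beside them. For Gpr6 the placebo mice lie at 846 CPM or above and 4 haloperidol and 3 olanzapine mice at or below 735. The remaining haloperidol mouse and the remaining olanzapine mouse lie within the placebo range. For Penk, Drd2 and Adora2a the groups overlap widely.

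Outside the markers, the gene with the smallest p for haloperidol was Srsf2, a splicing factor, at 353, 413, 327, 315 and 204 CPM in placebo and 33.4, 50.7, 181, 121 and 27.6 in haloperidol mice. The groups did not overlap, as for 12 genes that were lower in every haloperidol mouse (0.581% of those tested) and 7 that were higher (0.339%). Haloperidol 1, 2 and 5 gave 7, 7 and 6 members, with 29926, 78892 and 36190 UMIs over all genes. Their Srsf2 values therefore rest on few UMIs. The log2 fold change of Srsf2 was -1.56 ± 0.35 SE with an edgeR adjusted p of 0.121, which passed without haloperidol 3 (0.0147). Over 24 alternatives the log2 fold change ran from -2.09 to -0.886. In olanzapine mice Srsf2 averaged 135 ± 27.2 CPM (-1.21 ± 0.34 SE, adjusted p = 0.370), against the same placebo mice. The next were the synaptic genes Sncb at 1.29, Dlg2 at 1.28 and Ddn at 1.53, the cadherin Fat3 at 1.49, Rgs17, which quenches G-protein signals, at -1.48, Rab6a at 1.04, Bex1 at -1.01, Peg3 at 1.53 and the actin gene Actb at -1.27. Each of these had an edgeR adjusted p of 0.808.

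For olanzapine the smallest p was that of Ergic3, a protein cycling between endoplasmic reticulum and Golgi, at 309, 352, 409, 315 and 435 CPM in placebo and 171, 91.7, 159 and 163 in olanzapine mice. Its log2 fold change was -1.28 ± 0.30 SE (edgeR adjusted p = 0.217). The groups did not overlap, as for 55 genes lower in every olanzapine mouse (2.66%) and 35 higher (1.69%). Next came Tm2d3 at -1.26, Ppp1r2, an inhibitor of protein phosphatase 1, at 1.12, Ociad1 at -1.04, Clptm1l at -1.28, Npdc1 at -1.04, the co-chaperone Bag1 at 1.51, the cargo receptor Tmed7 at -1.35 and Mtch1 at -1.12. Their adjusted p lay between 0.295 (Tm2d3) and 0.370. Between the drugs, Erlec1 led at 1.39 ± 0.39 SE for haloperidol over olanzapine (adjusted p = 0.640), followed by Syngr1 at 1.25 and Rgs17 at -1.54, then Timp2 at 1.19, Zmat2 at -1.14, Stmn3 at 0.97, Mtch1 at 1.07, Scd2 at 0.93, Rnf34 at 1.19 and Emc9 at 1.19.

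By list, no member was called for either drug, and the 2 drugs share their placebo mice, so the values stand side by side and are not compared. Over all genes 1053 of 2066 lay above 0 under haloperidol (median 0.011) and 1085 under olanzapine (median 0.033). Of the immediate early genes tested, Junb, Egr1, Egr4, Ier5 and Homer1, 0 of 5 were above 0 under haloperidol (median -0.39) and 5 of 5 under olanzapine (median 0.16). Junb, a subunit of the AP-1 transcription factor, had the smallest p of these under haloperidol. It was at 123, 275, 791, 441 and 340.1 CPM in placebo and 134, 63.4, 230.2, 155 and 82.9 in haloperidol mice, which overlapped (-1.25 ± 0.52 SE, edgeR adjusted p = 0.854). With only mice of at least 20 cells its log2 fold change was -0.18. For haloperidol against olanzapine Junb had -1.40 ± 0.50 SE (edgeR adjusted p = 0.707), which passed in the fit without the filter (adjusted p = 0.0371). Of dopamine and cAMP signalling genes 16 of 23 were above 0 under haloperidol (median 0.10) and 15 of 23 under olanzapine (median 0.17). Of projection-neuron genes outside the rule 15 of 22 were above 0 under haloperidol (median 0.076) and 15 of 22 under olanzapine (median 0.24). Of ribosomal protein genes 22 of 75 were above 0 under haloperidol (median -0.13) and 56 of 75 under olanzapine (median 0.19), and of mitochondrially encoded genes 12 of 12 were above 0 under haloperidol (median 0.36) and 11 of 12 under olanzapine (median 0.22). Median depth per member was 2829 UMIs in placebo, 3531 in haloperidol and 3178 in olanzapine mice, and the part of depth in these list values was not tested.

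Whether a drug difference is particular to indirect-pathway cells was asked by the interaction of drug and class in 14 mice. None of 2413 genes passed for haloperidol or olanzapine by edgeR (0% called), and none by DESeq2. At an unadjusted p of 0.05 edgeR gave 107 (4.43%) and 101 (4.19%), and DESeq2 85 and 74. In direct-pathway cells alone, none of 1550 genes passed for either drug by edgeR, with 53 (3.42%) and 132 (8.52%) at an unadjusted p of 0.05.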

How the data were processed

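Droplet 3′ libraries (10x Genomics, v2 chemistry) of 15 mice were aligned and counted by the submitters; the submitters' processing notes name Cell Ranger, Seurat and mm10. The authors deposited 1 table of raw UMI counts per gene and cell, with a class for each cell, and no source used here states how cells were filtered before deposit. The cells of 1 mouse and kind were summed, so that a mouse is 1 replicate. Gene tests used edgeR 4.0.16 (quasi-likelihood, robust, TMM scaling, its filter on low counts, Benjamini-Hochberg adjustment at 0.05) in R 4.3.3, with DESeq2 1.42.0 as an alternative; SE is the log2 fold change over the square root of F. Indirect-pathway cells were paired with direct-pathway or other neurons of the same mouse (at least 10 cells of each), with mouse as a block because both come from 1 library. Drug groups needed at least 5 cells per mouse. Printed CPM are UMIs per 1000000 summed UMIs, without TMM. For shares, mice were permuted exactly and p is two-sided.

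The cells and gene lists were chosen with earlier results of these data known. Named genes are the 10 called genes with the largest change in each direction at a mean log2 CPM of at least 6, the 10 smallest p per drug comparison where fewer than 10 were called, the marker genes, and list members by smallest p; genes too sparse for the filter were named from the pathway lists after their values were seen. A few genes that this rule names are not reported here. Scripts were tested on simulated counts. Promoters came from RefSeq (GRCm38.p6, the build of mm10), which held 4 of the 6 genes looked up. Doublets were called with Scrublet in scanpy 1.11.5 and removed only in an alternative together with cells over 20% mitochondrial UMIs. Scrublet marked 81 of 5581 cells (1.45%) and 6 members, of which 4 lay in olanzapine 2. Alternatives left out each mouse in turn, changed the filter, the minimum of cells, the rule or the depth (2000 UMIs), dropped the block, or thinned neurons to 1000 UMIs. Those without the cholinergic cells, without the shared barcodes, and with members chosen without Adora2a or Gpr6 were chosen after seeing the data. With 1 library per mouse, p-values between drug groups measure the spread between mice. Those of the paired and interaction tests measure how far the difference within a mouse varies from mouse to mouse. The mouse placebo 5 is not fully separate from placebo 2 and 3.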

Additional observations from a re-analysis of the deposited data

Results flagged for a closer look

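Of 105 sets of 4 or 5 mice (a named gene within 1 drug group), 5 held a mouse far from the others by Dixon's criterion, which chance alone gives in about 5% of sets. Actb stood at 2165 CPM in haloperidol 3, above the other haloperidol mice (769, 1014, 733 and 1050 CPM). Ergic3 was at 91.7 CPM in olanzapine 3, below the other olanzapine mice. In placebo 4, Npdc1 was at 284 CPM, where the other placebo mice had 599.8, 612, 682 and 680.3, and Ociad1 at 1292 CPM, where they had 891, 749, 900.2 and 789. Rgs17 was at 107 CPM in placebo 2, where the other placebo mice had 150, 164, 158 and 163. The mouse placebo 4 gave 10 members and placebo 2 gave 12.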

How the results depend on the processing

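Called genes against direct-pathway cells numbered 25; without the filter on low counts there were 84, with no replicate block 11, and with each mouse left out in turn 18 to 33. Against all other neurons the 294 calls became 609 without the filter, 195 with mitochondrial and doublet-marked cells removed, 163 with no replicate block and 214 to 322 with each mouse left out. The pairing is by mouse, since both classes come from 1 library. Of the called genes named, 8 of 21 against direct-pathway cells (Asic4, Ctsz, Gucy1a1, Lrpap1, Mctp1, Nrxn2, Sfxn1 and Wfs1) and 26 of 35 against all other neurons kept their call in every alternative that tested them; 7 and 4 lost it when 1 mouse was left out.

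For haloperidol against placebo, 0 calls became 15 without the filter, 1 with at least 10 cells per mouse (Mir670hg) and 0 to 1 with single mice left out (Srsf2 without haloperidol 3). Haloperidol against olanzapine gave 27 without the filter, 3 with at least 20 cells per mouse and 0 with each mouse left out; olanzapine against placebo stayed at 0 in the alternatives that were run. The interaction gave 3 calls for haloperidol without the filter and 0 to 1 for olanzapine with mice left out (Bmyc, without placebo 1). The causes were not tested. No paired analysis was possible because the drug groups hold different mice, whose numbers do not link them.

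Shares among all neurons, with each mouse left out, ran from -9.95 to -4.79 points for haloperidol against placebo, -1.80 to 6.93 for olanzapine against placebo and -14.3 to -5.54 for haloperidol against olanzapine. Among typed cells they ran from -9.23 to -0.461, -6.07 to 3.20 and -6.98 to 0.293; thinned to 1000 UMIs, olanzapine against placebo was 1.99. Single genes changed sign as follows. Penk under haloperidol was -0.074 without the filter, -0.023 by a stricter and -0.020 by a looser rule, and -0.30 to 0.21 with mice left out. Adora2a under haloperidol was 0.17 with at least 20 cells, and for haloperidol against olanzapine -0.019 without the filter and -0.10 to 0.36 with mice left out. Drd2 under olanzapine was 0.085 without the filter, 0.17 with at least 20 cells, 0.087 with marked cells removed and -0.16 to 0.16 with mice left out. Gpr6 for haloperidol against olanzapine was 0.36 and 0.35 with at least 10 and 20 cells, 0.019 without the cholinergic cells and -0.39 to 0.10 with mice left out. Junb under olanzapine ran over -0.29 to 0.52 with mice left out. Of the 15 mice, 8 gave 20 members or fewer, and the depth per mouse and the number of mice both bound what the drug comparisons can detect.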

Other observations

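Of the receptors outside the rule that antipsychotics bind, Htr2c, with 209 UMIs in 132 indirect-pathway cells, and Chrm1 passed the filter on low counts against direct-pathway cells. The others named here were sparse in indirect-pathway cells. The alpha-2C adrenoceptor gene Adra2c had 20 UMIs in 17 indirect-pathway cells and 69 UMIs in 58 direct-pathway cells, with a log2 fold change of -1.52 in the fit without the filter (edgeR adjusted p = 0.0364). The serotonin 2A receptor gene Htr2a had 43 UMIs in 30 indirect-pathway cells and 31 UMIs in 25 direct-pathway cells (0.62, edgeR adjusted p = 0.999), and the muscarinic M1 gene Chrm1 154 UMIs in 121 indirect-pathway cells and 199 UMIs in 147 direct-pathway cells (-0.048, edgeR adjusted p = 0.998 in the fit with the filter). The D5 receptor gene Drd5 had 18 UMIs in 2 indirect-pathway cells and no UMI in any direct-pathway cell, and Htr1a 13 UMIs in 3 indirect-pathway cells and no UMI in any direct-pathway cell. All 18 Drd5 UMIs and 9 of the 13 of Htr1a lay in the 2 members with cholinergic markers; without them Drd5 had no UMI in indirect-pathway cells and Htr1a 4 UMIs in 1 cell. Of cells outside the deposited class of neurons, 12 of 4593 met the UMI parts of the rule.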
